A study of Mus musculus with 4 samples.

Results

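The transcriptome of EGF-treated melanocytes was set against that of the same cells starved without EGF, array against array. The cells were melan-a, an immortal, pigmented mouse melanocyte line, in the form labelled Hmhi, a name that the labels do not spell out. Both cultures were held in starvation medium with dialyzed serum for 14 days, either with no EGF or with EGF at 100 ng/ml. Before that, cells were grown with the phorbol ester TPA and with cholera toxin, mitogens that melan-a cells are usually kept in. The starvation medium, as labelled, lists neither of them for either culture. These were 2 of the 4 arrays of the series. The other 2 held Hmhi-Miz1 kd cells and, separately, cells labelled Hmhi-MYC-TA, which received EGF at the same dose for the same time. Their levels are given beside those of the Hmhi pair as values only. All probe sets that the platform annotation assigned to 1 gene were used, 34945 of 45101, and they stood for 18193 genes. Each condition had 1 array, so every difference below is between 2 arrays, none was tested, and no spread between cultures is known.

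EGF binds the receptor tyrosine kinase EGFR and, through RAS, RAF and MEK, activates the kinase ERK. ERK signaling induces immediate early genes such as Fos and Egr1 within minutes, usually for a short time. Over longer times it induces its own inhibitors, the Sprouty and Spred proteins and the dual specificity phosphatases, together with the ETS factors Etv4 and Etv5. Melanocytes depend on growth factor input, chiefly KIT ligand and endothelin, and on the transcription factors MITF and SOX10, which drive the pigment genes.

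Levels are deposited signals taken to be on a log2 scale, so a difference of 1 is 2-fold. Each array had a median of 6.66 over its non-control probe sets. A level below that is close to background, and differences that reach into that range understate or distort the true ratio. Genes were compared if they reached the median on at least 1 of the 2 arrays, which 11461 genes did. The only error that the arrays give is technical: probe sets of the same gene differed with a pooled SD of 0.32 in this comparison, over 5294 genes. The values of the 4 arrays had been brought to near-identical distributions before deposit, so a shift of all genes could not be seen. The 3 control sets of 18S ribosomal RNA were higher in the EGF array by a median of 0.83. The 3′ minus 5′ signal of the beta-actin control sets, a measure of RNA integrity, was 0.66 in the starved and 0.87 in the EGF array, and that of Gapdh was -0.22 and -0.31. The part of RNA quality in the differences was not tested.

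Melanocyte markers mostly passed the level filter, and markers of the other cell types listed did so less often. Schwann cell genes were not among the marker lists and are given further below. Of 12 melanocyte markers, 11 passed the level filter. Of these, 5 were at least 2-fold higher with EGF, 45.5% against 7.98% of all genes compared. Another 1 was at least 2-fold lower, 9.09% against 4.96%, and the median difference was 0.92. The transcription factor gene Sox10 read 13.22 in starved and 13.21 in EGF cells. Tyr, the gene of tyrosinase, was below the median on both arrays, at 4.62 and 5.63. Endothelial markers passed for 1 of 10 genes. Keratinocyte markers passed for 3 of 13 genes and lymphocyte markers for 3 of 8, and none of these was 2-fold apart between the arrays. Macrophage markers passed for 3 of 12 genes. Of these, 1 was at least 2-fold higher with EGF (33.3% against 7.98%) and 1 at least 2-fold lower (33.3% against 4.96%). Cd68, a lysosomal membrane protein, read 6.55 and 8.07, Csf1r 9.41 and 6.74, and Lyz2, lysozyme, 11.87 and 12.37. The list of 12 had a median level of 5.20 in starved and 5.43 in EGF cells. The pan-leukocyte gene Ptprc read 4.20 on both arrays and Adgre1, a macrophage surface antigen, 5.58 and 5.71. Fibroblast markers passed for 7 of 14 genes, with a median level over the list of 6.38 and 6.41. Of these 7, 2 were at least 2-fold higher (28.6% against 7.98%) and 1 at least 2-fold lower (14.3% against 4.96%). Fbln1 and Postn of that list were higher with EGF by 2.91 and 2.24, while Dcn had a difference of -1.16. Fbln1 rested on probe sets between 0.12 and 3.06. In bulk RNA, fewer cells of a kind and less RNA per cell cannot be told apart.

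Of the 11461 genes compared, 915 (7.98%) were at least 2-fold higher with EGF and 568 (4.96%) at least 2-fold lower. The median difference was 0.01. The 5th percentile of the differences was -0.997 and the 95th was 1.29. At least 4-fold differences numbered 225 higher and 108 lower genes, and at least 8-fold differences 56 and 24. Several probe sets were past the filter for 384 of the higher genes. For 367 of these all sets pointed upward, and for 178 all sets were at least 2-fold higher. Of 253 lower genes with several sets, 243 had all sets below 0 and 149 had all at least 2-fold lower. The starved array was below the median for 210 of the higher genes, and the EGF array for 93 of the lower genes.

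**Figure D1:**
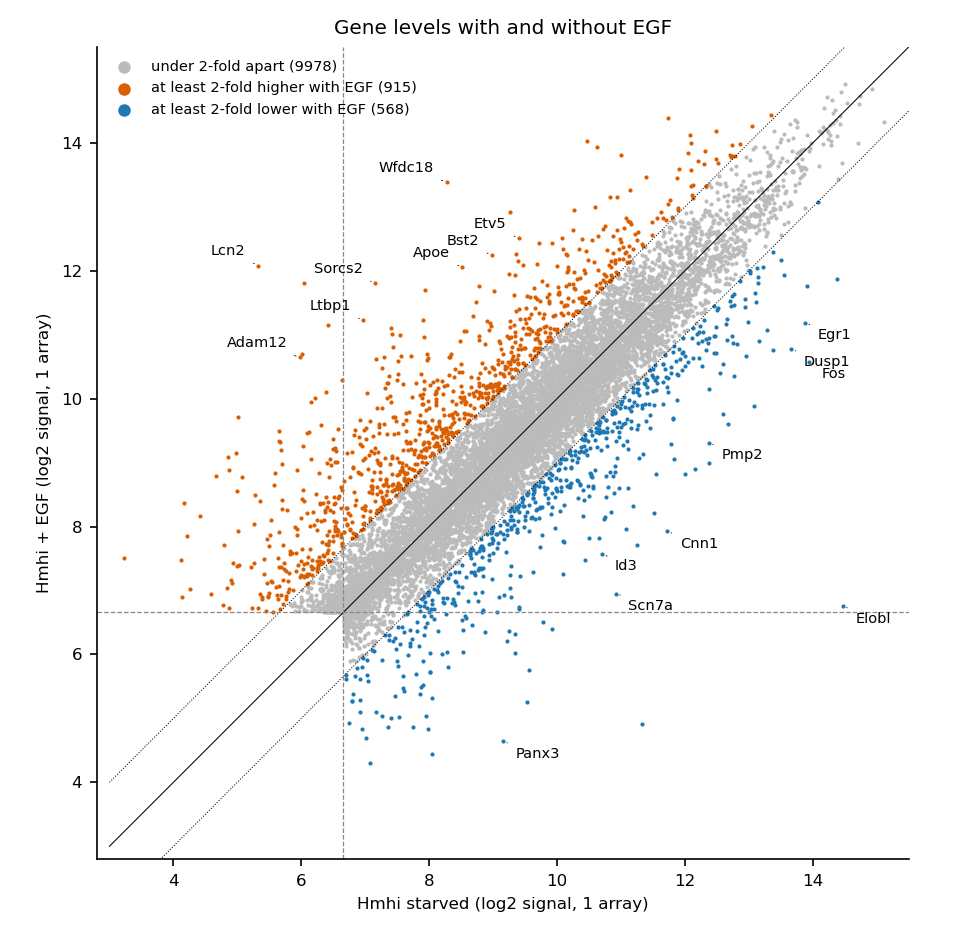
Log2 signal of each of the 11461 genes compared in the starved array (horizontal axis) and the EGF array (vertical axis), 1 array each. Dotted lines mark 2-fold, dashed lines the array median, and 915 genes in orange lie above and 568 in blue below the 2-fold lines, with Elobl farthest below and Lcn2 farthest above.

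The mouse gene of the EGF receptor differed little. Egfr read 8.11 in starved and 8.16 in EGF cells, with 1 of its 7 probe sets past the filter. Which receptor the Hmhi cells answered EGF through was not tested. Erbb2, the preferred partner of the other family receptors, read 10.27 and 10.13. Erbb3, the neuregulin receptor of Schwann cells and melanocytes, was higher with EGF, at 11.76 and 13.11, and it read 13.26 and 12.63 in the Miz1 kd and MYC-TA arrays. Lrig1, a transmembrane inhibitor that promotes the degradation of ERBB receptors, was higher by 1.56, from 9.54 to 11.10. Among ligands, Nrg1 and Btc were higher by 1.48 and 1.39 but read 5.39 and 5.91 in starved cells, below the median, and Hbegf was higher by 0.55. The scaffold gene Gab1, which couples receptors to SHP2 and PI3 kinase, was the only lower member past 2-fold, at 11.95 and 10.46, with its 3 probe sets between -1.57 and -1.45. Of 17 genes of the receptor family, its ligands and its inhibitors that were compared, 4 were at least 2-fold higher (23.5% against 7.98%) and 1 lower (5.88% against 4.96%), and the median was 0.16, or 0.49 with only sets that end in a plain _at.

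The feedback layer of the ERK pathway was higher with EGF. Of 14 genes compared, 8 were at least 2-fold higher, 57.1% against 7.98% of all genes, and none was 2-fold lower. The median difference was 1.26, or 0.94 without the level filter. Spry3, at 5.99 and 4.56, was below the median on both arrays and was not compared. Etv5, an ETS transcription factor, read 9.40 in starved cells and 12.51 with EGF, and 11.89 and 12.11 in the other EGF arrays. Its 3 probe sets lay between 2.82 and 3.10. Il17rd, the SEF inhibitor of receptor signaling, read 6.45 and 9.05, and Spry4, a Sprouty inhibitor of RAS activation, 8.32 and 10.37. Dusp4 and Dusp6, the nuclear and the cytoplasmic phosphatase of ERK, were higher by 1.93 and 1.57. Dusp6 read 11.16 in starved cells and 12.73, 12.68 and 12.46 in the 3 EGF arrays. Spry1 was higher by 1.53, Etv4 by 2.04 and Spred3 by 1.001. Etv4, at 6.18, and Il17rd were below the median in starved cells, so their differences have no reliable size. Both passed the level filter only through the EGF array. Other members stayed near their starved level: Spry2 differed by 0.16, Phlda1 by 0.12, Dusp7 by 0.35 and Dusp5 by -0.58.

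Immediate early genes went the other way. Of 27 compared, 14 were at least 2-fold lower with EGF, 51.9% against 4.96% of all genes, 1 was 2-fold higher, and the median was -1.002, or -1.53 with the level filter at the 75th percentile. Fos, a partner in the AP-1 dimer, read 13.94 in starved cells and 10.58, 10.14 and 11.29 in the Hmhi EGF, Miz1 kd and MYC-TA arrays. Egr1, a zinc finger factor induced by growth factors, read 13.88 and then 11.19, 10.97 and 12.07 in the same order. Dusp1, a phosphatase of p38, JNK and ERK, read 13.66 and then 10.77, 10.60 and 10.89. For each of these 3 genes the starved array was the highest of the 4. Zfp36, whose protein destabilizes AU-rich mRNAs, had a difference of -2.78, Btg2 one of -2.37, Fosl2 one of -1.90 and Ier2 one of -1.70. Another set of Fosl2 was at -0.185. Egr2 and Fosb, at -3.26 and -2.32, read below the median with EGF. The Jun genes differed less, with Junb at -1.20 and Jun at -0.75, and Nr4a1 at -0.27. Klf10, a TGF-beta-inducible factor, was the exception on the higher side at 1.70, and Ier3 and Fosl1 were higher by 0.90 and 0.92.

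**Figure D2:**
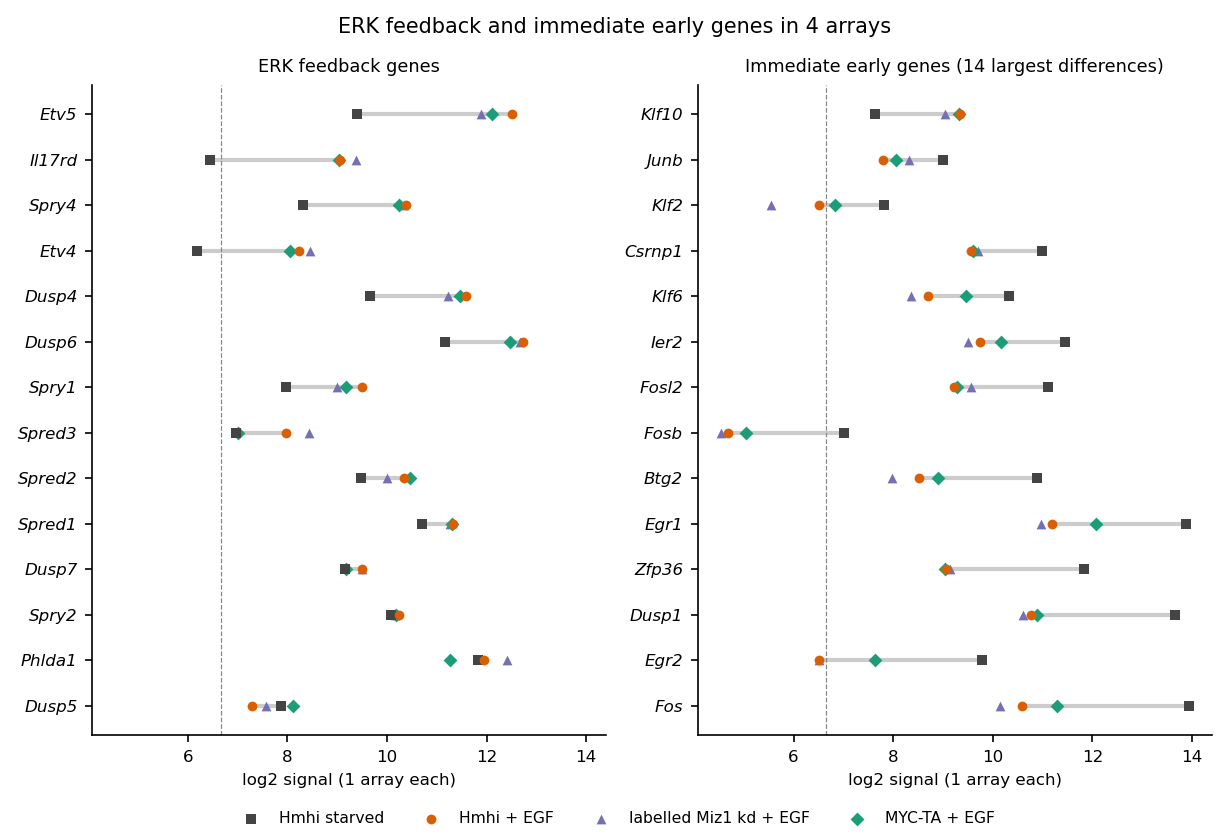
Log2 signal in each of the 4 arrays for ERK feedback genes (left) and for the immediate early genes with the largest differences (right), sorted by the difference between Hmhi + EGF (circle) and Hmhi starved (square), joined by a grey bar; triangles and diamonds are the other 2 EGF arrays and the dashed line is the array median. Starved cells had the lowest value for Etv5, Dusp6 and Spry4 and the highest for Fos, Egr1 and Dusp1.

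Immediate early promoters are known for the CArG box, the site of serum response factor. Letters of this box stood in the promoter windows of 2 genes on the immediate early list, of 23 that matched a window and 28 in all (RefSeq, GRCm38.p6, from 250 bases before to 50 after a start), against 1.81% of all 27025 genes with a window. They are shown because both genes were among the lower ones, with the box in capitals.
Egr2 (chr10:67537469-67537528, plus strand): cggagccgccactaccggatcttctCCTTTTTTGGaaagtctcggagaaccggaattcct
Zfp36 (chr7:28379252-28379311, minus strand): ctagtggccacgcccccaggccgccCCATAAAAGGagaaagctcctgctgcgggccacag
The box began 72 bases before the start in Egr2 and 58 in Zfp36. Of the 20 immediate early genes compared whose windows lacked the box, 10 were also at least 2-fold lower. Egr1 and Ier2 had no matched window, and sites outside the windows were not searched. On the list of actin, contractile and SRF and YAP target genes, described next, it stood in 5 of 28 matched windows (17.9%). There 0 of 4 genes compared with it and 8 of 22 without it were at least 2-fold lower. Among all genes compared with a window, 7.19% of the 153 with the box and 4.76% of the 9164 without it were at least 2-fold lower, and 10.5% and 7.63% at least 2-fold higher. The AP-1 site TGANTCA stood in windows of 553 genes, of which 7.78% were at least 2-fold lower and 9.58% at least 2-fold higher, against 4.61% and 7.55% of the 8764 without it. These are descriptions of letters in a window and not of binding.

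Several contractile genes were lower with EGF. Of 30 genes of actin, contraction and the SRF and YAP programs, 9 were at least 2-fold lower, 30.0% against 4.96% of all genes compared, and the median was -0.32. The 2 at least 2-fold higher, 6.67%, lay near the 7.98% of all genes. Cnn1, a smooth muscle calponin, read 11.72 in starved and 7.93 in EGF cells, and 6.95 and 9.57 in the Miz1 kd and MYC-TA arrays. Acta2, smooth muscle actin, read 11.81 and 9.70, and then 8.86 and 11.80, so the MYC-TA array was at the starved level. Ccn1, a matrix protein and YAP target, read 12.68 and 9.60, with 4 probe sets between -3.79 and -3.08. Ankrd1, another YAP target, had a difference of -3.60 but read 4.44 with EGF, below the median. Lats2, the kinase that restrains YAP, was at -1.71. Ccn2, often read with Ccn1, differed by 0.16. Actb, Myh9 and Cald1, widely expressed cytoskeletal genes, lay between -0.17 and 0.02. Myh10 and Tes were higher by 1.28 and 1.29.

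Other growth factor receptors and ligands divided. Of 22 genes compared, 5 were at least 2-fold higher (22.7% against 7.98%) while 6 were 2-fold lower (27.3% against 4.96%). All 3 members of the TAM receptor family were higher: Tyro3 read 5.70 and 8.97, Mertk 6.58 and 8.44, and Axl 11.78 and 12.27, the last under 2-fold. Gas6, a TAM ligand, read 6.85 and 8.41, and 6.32 and 9.09 in the other EGF arrays. Tyro3, Mertk and Gas6 were thus near background in starved cells or just above it. Pdgfa, a platelet-derived growth factor, was higher by 1.90 on probe sets between 1.90 and 1.95, while Pdgfb was at -1.44. Kit, the receptor that melanoblasts need, read 6.12 and 7.04. Its ligand gene Kitl read 10.97 and 9.63 with 3 probe sets between -1.37 and -1.28. Fgfr2 and Fgfr3 had differences of -1.96 and -1.61, Fgfr1 one of 1.14, and Csf1r, the receptor of the macrophage growth factor, one of -2.66 on probe sets between -2.66 and -0.57. The leading lower gene, Fgf13, encodes an intracellular FGF homologue that binds sodium channels and read 11.24 and 7.72.

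In the insulin-like growth factor system, ligand and clearance receptor were higher and 2 binding proteins lower. Igf2 read 8.52 and 10.42, and Igf2r, which takes up IGF2 and lysosomal enzymes, 9.08 and 10.60 with 2 probe sets at 1.52 and 1.74. Igfbp3, the main serum carrier of IGFs, read 13.38 in starved cells and 10.76, 10.63 and 10.62 in the 3 EGF arrays. Igfbp5 was at -1.22, but another of its sets was at -0.03. Igf1r was higher by 0.87. Igfbp4 was higher by 1.73 on its representative set, while its sets ranged from -0.18 to 1.73.

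The TGF-beta family differed mainly in latency proteins and secreted antagonists. Ltbp1, which tethers latent TGF-beta to the matrix, read 6.97 and 11.23, with its other set at 0.88. Ltbp3 and Ltbp4 were higher by 1.23 and 1.06. Tgfbi, a matrix protein named for its induction by TGF-beta, read 5.001 and 8.56 on the Hmhi arrays, below the median in starved cells. Fst and Grem1, antagonists of activins and BMPs, were at -2.52 and -1.52, and Inhba, an activin subunit, at -1.06. The SMAD transducers lay between -0.65 (Smad6) and 0.62 (Smad3). Of 24 genes, 5 were at least 2-fold higher (20.8% against 7.98%), 3 at least 2-fold lower (12.5% against 4.96%), and the median was 0.08. In the WNT system the ligands Wnt10a and Wnt9a were at -2.73 and -1.51, and the receptors Fzd4 and Fzd7 higher by 1.86 and 1.70. Axin2, a common readout of WNT signaling, read 6.91 and 7.13.

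Genes of mitosis were higher with EGF by modest amounts. Of 37 genes of G2 and mitosis, 36 had a positive difference and 15 were at least 2-fold higher, 40.5% against 7.98%. Their median was 0.96, and Anln, an actin-binding cytokinesis protein, was the exception at -0.25. Mki67, a proliferation marker, read 10.44 and 11.97, and the separase gene Espl1 7.66 and 9.20. Top2a, the DNA decatenase, read 9.44 and 10.77. The MYC-TA array was above the Hmhi EGF array for Mki67, Espl1 and Top2a, at 12.30, 9.29 and 10.99. Of 35 genes of DNA replication, 4 were at least 2-fold higher, a share of 11.4% that lay near the 7.98% of all genes, and the median was 0.52, or 0.34 with only sets that end in a plain _at. Prim1, the primase, was higher by 1.95, Tk1 by 1.35, Cdt1 by 1.23 and Uhrf1 by 1.12. Pcna, at -0.27, and Mcm4, at -0.02, were not among them.

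Cyclin D genes were within 2-fold on their brightest sets, and a CDK inhibitor was higher. Ccnd1 read 13.38 and 13.27, Ccnd2 12.12 and 12.47, and Ccnd3 10.35 and 10.49, with another Ccnd3 set higher by 1.05. Cdkn1a, the p21 inhibitor of cyclin-dependent kinases, read 8.12 in starved cells and 10.29, 9.49 and 10.11 in the 3 EGF arrays, with Hmhi probe sets at 1.69 and 2.17. Cdkn2a, the locus of p16 and p19ARF, read 7.87 and 7.89, and Cdkn2b 9.18 and 8.74. Glb1, the gene of senescence-associated beta-galactosidase, was higher by 1.39, and Hmga2, a chromatin protein, by 2.10 on sets between 0.61 and 2.10. Lmnb1, the lamin that is often reduced in senescent cells, was higher by 0.75. Of 16 genes on the list of CDK inhibitors and senescence genes, 4 were at least 2-fold higher, 25% against 7.98%, and none was 2-fold lower, against 4.96%.

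Interferon-induced genes were higher with EGF, with the sensors upstream of them split. Sting1, the adaptor of cytosolic DNA sensing, read 9.59 and 11.32, and Cgas, the sensor that feeds it, 7.64 and 8.96. Tlr3 was higher by 1.28 and Dhx58, an RNA helicase of the RIG-I family, by 1.44. Usp18, which removes ISG15 from proteins and dampens interferon signaling, read 7.52 and 10.59. Socs3 and Jak1, an inhibitor and a kinase of cytokine signaling, were at -1.497 and -1.48, and Zbp1 at -1.18 on sets between -1.18 and 0.08. The factors Irf1, Irf3, Irf7 and Stat2 lay within 2-fold, at 0.33, -0.10, -0.27 and 0.56. Ifnb1 was below the median on both arrays, at 5.93 and 5.65. Of 25 genes on the list of sensors and factors, 5 were at least 2-fold higher, against 7.98% of all genes, while 3 were 2-fold lower, 12% against 4.96%.

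Among antiviral effectors, 14 of 33 were at least 2-fold higher, 42.4% against 7.98%, 1 was lower, and the median was 0.64. Bst2, tetherin, which holds budding virus at the cell surface, read 8.98 in starved cells and 12.24, 11.20 and 12.11 in the 3 EGF arrays. Rsad2, viperin, read 8.77 and then 11.76, 10.54 and 11.42, and its Hmhi probe sets lay between 2.84 and 3.13. Ifitm3, a membrane protein that blocks viral fusion, read 12.08 and then 14.13, 13.69 and 13.65. Ifit1 read 8.06 and 10.26 in the Hmhi arrays but 7.80 in the array labelled Miz1 kd, below starved cells. Rtp4 was higher by 2.42 and Oasl2 by 2.59, the latter from 5.69, below the median, as were Ddx60 and Trim30a in starved cells, at 5.90 and 6.09. Not all members went along: Ifit2, at 10.33 and 9.69, and Ifit3, at 10.29 and 10.38, were not higher than 2-fold, Eif2ak2 was at -0.82 on sets between -0.82 and 0.50, and Samhd1 read 9.90 and 8.19. Members of the Ifit, Oas and Gbp families are similar in sequence, so their probe sets may read each other's transcripts.

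The MHC class I pathway had 8 of 18 genes at least 2-fold higher, 44.4% against 7.98%, and none 2-fold lower, and its median was 0.90. Tap1, a subunit of the peptide transporter, read 7.55 in starved cells and 10.66 with EGF, and its other set differed by 0.43. Tap2, the partner subunit, read 8.24 and 9.49. Psmb9, an immunoproteasome subunit, read 7.02 and 9.54 in the Hmhi pair and 7.08 in the array labelled Miz1 kd. Psmb8 was higher by 1.02, while Psmb10 was at -0.30. H2-K1 and H2-D1, the classical class I heavy chains, were higher by 1.89 and 1.71 on sets between 1.26 and 3.55 and between 0.48 and 2.18, and these genes are similar enough for probe sets to cross. B2m, the invariant light chain, read 14.22 and 14.72. Nlrc5, the transactivator of these genes, was higher by 1.26, and Cd274, PD-L1, was at -0.34. The interferon-inducible GTPases held 4 genes at least 2-fold higher of 9 (44.4%), led by Gbp8 at 3.21 and Iigp1 at 2.70, and 1 lower, Gbp2, at -2.37 on 2 sets. Among chemokines and interleukins 16 of 40 were compared, and 4 were at least 2-fold higher (25% against 7.98%): Ccl9 by 3.04, Ccl5 by 2.65, Ccl6 by 2.28 and Cxcl10 by 1.08. Il18 was lower, at 13.28 and 11.08, and Il6, Il1a, Il1b and Tnf were below the median on both arrays. Leukocyte markers beside these genes are those given above, with Ptprc at 4.20 on both arrays.

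**Figure D3:**
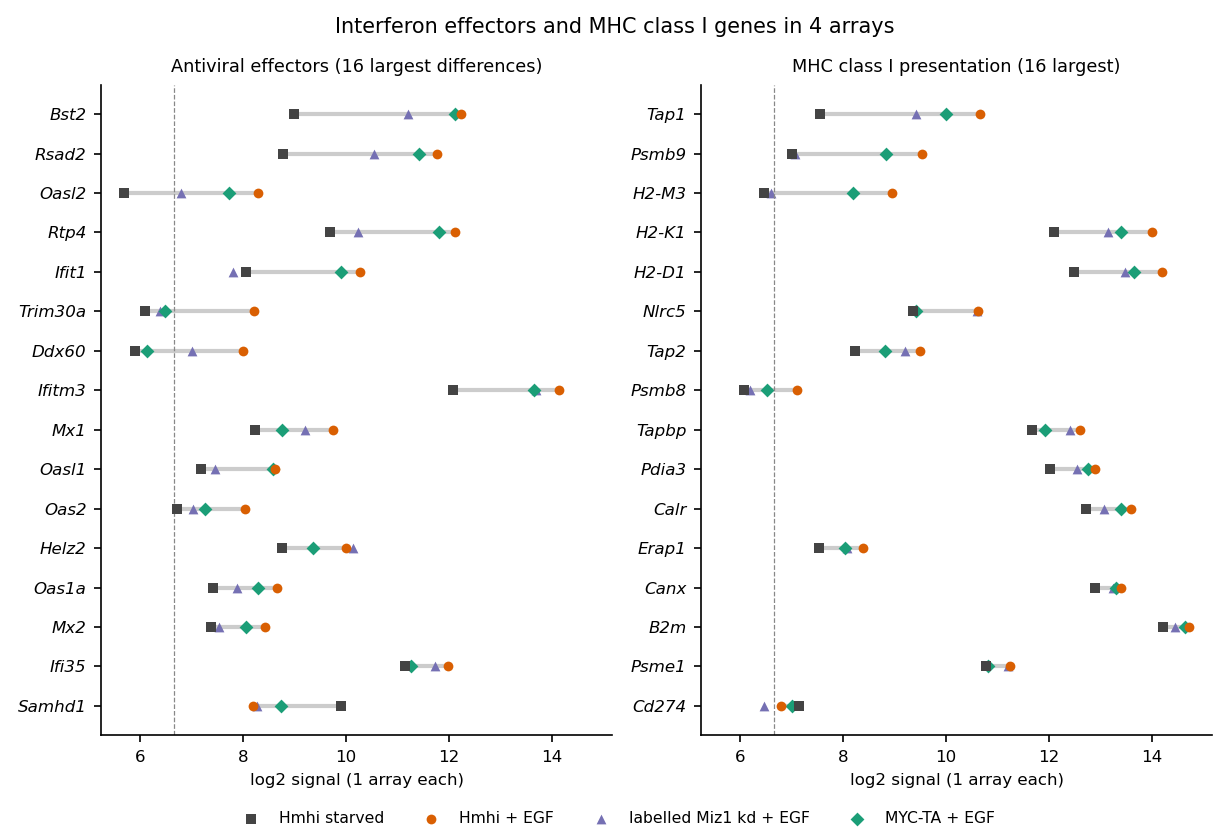
Log2 signal in each of the 4 arrays for the antiviral effectors (left) and MHC class I genes (right) with the largest differences, drawn as squares (Hmhi starved), circles (Hmhi + EGF), triangles (labelled Miz1 kd + EGF) and diamonds (MYC-TA + EGF), with the array median dashed. For Bst2, Rsad2, Tap1 and H2-K1 all 3 EGF arrays lay above the starved array, and for Ifit1 the array labelled Miz1 kd lay below it.

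Promoters of interferon-induced genes are known for the interferon-stimulated response element. Its core GAAANNGAA, searched on both strands, stood in the windows of 18 of 31 antiviral effectors, of 8 of 8 interferon-inducible GTPases and of 5 of 19 MHC class I genes, against 9.76% of all genes with a window. These lists hold 39, 15 and 24 genes. Stretches from 7 promoters are shown because these genes were higher with EGF and hold the core before their start, with the letters of the core or of its reverse complement in capitals.
Rsad2 (chr12:26456538-26456596, minus strand): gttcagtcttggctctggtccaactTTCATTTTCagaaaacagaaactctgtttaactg
Ifit1 (chr19:34640755-34640813, plus strand): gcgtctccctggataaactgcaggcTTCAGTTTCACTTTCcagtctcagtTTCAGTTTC
Bst2 (chr8:71537569-71537627, minus strand): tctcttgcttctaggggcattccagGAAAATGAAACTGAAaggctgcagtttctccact
Trim30a (chr7:104465195-104465253, minus strand): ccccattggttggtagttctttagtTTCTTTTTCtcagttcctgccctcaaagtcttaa
Oas1a (chr5:120907526-120907570, minus strand): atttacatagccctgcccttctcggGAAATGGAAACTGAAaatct
Ddx60 (chr8:61928009-61928067, plus strand): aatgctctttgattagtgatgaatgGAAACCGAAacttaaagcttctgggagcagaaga
Igtp (chr11:58199497-58199555, plus strand): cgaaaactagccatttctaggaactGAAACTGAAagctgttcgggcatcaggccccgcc
The core overlapped itself in Bst2, Oas1a and Ifit1. Bst2 and Oas1a held 2 matches each, and Ifit1 held 3. Their genes were higher by 2.99 (Rsad2), 2.20 (Ifit1), 3.26 (Bst2), 2.12 (Trim30a), 1.25 (Oas1a), 2.09 (Ddx60) and 1.40 (Igtp). Within the effector list, 7 of the 14 genes compared that held the core were at least 2-fold higher, and 3 of the 12 that did not. Within the MHC class I list the counts ran the other way, with 0 of 4 and 6 of 11. On the list of sensors and factors they were 0 of 5 and 2 of 16. Among chemokines and interleukins they were 1 of 1 and 2 of 11. Of the 6 interferon-inducible GTPases compared that held the core, 1 was past 2-fold on the higher side and 1 on the lower side. Over all genes compared with a window, 10.1% of the 766 with the core and 7.46% of the 8551 without it were at least 2-fold higher.

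Pigment genes went in both directions. Of 26 melanin and melanosome genes, 6 were at least 2-fold higher (23.1% against 7.98%), 3 at least 2-fold lower (11.5% against 4.96%), and the median was -0.18. Pmel, which builds the melanosome fibrils, read 7.11 in starved and 8.62 in EGF cells. Dct, dopachrome tautomerase, read 9.79 and 11.26, and 9.19 in the array labelled Miz1 kd. Mc1r, the melanocortin receptor, read 8.41 and 9.92 with its 2 probe sets at 1.28 and 1.51. Slc45a2 and Oca2, which set melanosome pH, read 8.05 and 9.67, and 8.29 and 9.36. In the MYC-TA array both were below starved cells, at 6.97 and 6.21. Cited1, a transcription cofactor of pigment cells, was higher by 2.20. Tyrp1, an enzyme of eumelanin synthesis, read 14.09 and 13.07 on sets between -1.81 and -0.96, and Mlana 12.78 and 11.95. Rab32, a GTPase that delivers enzymes to melanosomes, read 10.77 and 8.47, and its relative Rab38 11.43 and 10.73. Mlph and Myo5a, which carry melanosomes along actin, were at -0.73 and -0.47, and Hps5, of a melanosome biogenesis complex, at -1.28. Gpnmb, a melanosome glycoprotein, read 14.74 on both arrays, while another of its sets was higher by 1.46.

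Of 20 lineage transcription factors compared, 1 was at least 2-fold higher, 5.0% against 7.98% of all genes, and 3 were 2-fold lower, 15.0% against 4.96%. Mitf, the master factor, read 10.81 and 9.91 on 1 of its 2 sets, and 9.96 and 9.65 in the other EGF arrays. Pax3 read 10.64 and 10.65. Snai2, a factor of neural crest migration, was at -1.52 on both of its sets, Sox2 at -1.18 and Zeb2 at -0.98 on sets between -0.98 and 0.19. Id3, an inhibitor of helix-loop-helix factors, read 10.71 and 7.58, while its relatives Id1 and Id2 were at 0.05 and -0.58 and Id4 read 7.42 and 11.01. Tbx2, a repressor linked to melanocyte proliferation, read 7.86 and 10.05.

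The M-box TCATGTG, an extended form of the site that MITF reads, stood in 7 of the 24 matched windows of the 30 melanin and melanosome genes (29.2%) and of 4.31% of all genes with a window. The stretches below are shown because these genes differed in opposite directions; the box or its reverse complement is in capitals, and it shares no letters with a match to CACGTG.
Tyrp1 (chr4:80834141-80834197, plus strand): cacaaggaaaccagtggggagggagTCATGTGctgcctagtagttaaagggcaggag
Mc1r (chr8:123407005-123407061, plus strand): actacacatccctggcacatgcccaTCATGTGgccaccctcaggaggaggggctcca
Dct (chr14:118052447-118052496, minus strand): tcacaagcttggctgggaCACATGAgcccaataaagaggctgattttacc
The box began 47 bases before the start in Tyrp1, 52 in Mc1r and 232 in Dct. Tyrp1 differed by -1.02, and Mc1r and Dct by 1.51 and 1.48. Of the 4 genes with the box that were compared, 2 were at least 2-fold higher, against 1 that was 2-fold lower. Of the 17 on the list without it, 2 were past 2-fold on each side. Among all 252 genes compared with the box, 9.52% were past 2-fold on the higher side and 5.95% on the lower side. The shares of the 9065 genes without it were 7.62% and 4.77%.

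Neural crest and Schwann cell genes, which melanocytes share by origin, divided evenly, as 4 of 13 were at least 2-fold higher (30.8% against 7.98%), another 4 were 2-fold lower (30.8% against 4.96%), and the median was -0.01. The leading lower gene was Scn7a, of a sodium channel family, which read 10.92 in starved cells and 6.95, 6.94 and 7.70 in the 3 EGF arrays, on 3 sets between -4.39 and -1.46. Egr2, the factor that drives myelination in Schwann cells, was at -3.26, Pmp22, a myelin membrane protein, read 12.55 and 10.40, and Tubb3, a neuronal tubulin, 9.33 and 8.02. Mbp, myelin basic protein, was within 2-fold on its brightest set, at 14.70 and 14.00, with 8 sets between -2.67 and -0.70. The higher genes were Ncam1, a cell adhesion molecule, at 9.26 and 12.91 with 6 sets between 0.82 and 3.66, Pou3f1, the SCIP factor of Schwann cells, at 7.22 and 9.56, and Nes and Erbb3, higher by 1.30 and 1.34.

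Lipid efflux and lysosomal genes were higher with EGF. Of 13 apolipoprotein and LXR-linked genes, 8 were at least 2-fold higher, 61.5% against 7.98%, none at least 2-fold lower, and the median was 1.62, or 1.06 with the mean of all probe sets. Apoe, the main apolipoprotein outside liver, read 8.52 in starved cells and 12.05 and 12.16 in the Hmhi EGF and Miz1 kd arrays, but 8.13 in the MYC-TA array. Abca1, which loads cholesterol onto apolipoproteins, read 9.64 and then 11.73, 11.39 and 11.61. Vldlr, a lipoprotein receptor, read 9.36 and 12.27, with 6 sets between 1.48 and 3.19. Lpcat3, which remodels phospholipids, and Mylip, the ligase that degrades lipoprotein receptors, were higher by 1.72 and 1.21. The receptor gene Nr1h3 itself differed by 0.07, and Apod, at 15.12 and 14.32, was at -0.80. Genes of sterol and fatty acid synthesis went in both directions. Of 26 compared, 13 had a positive and 13 a negative difference, 3 were at least 2-fold higher while 3 were 2-fold lower (11.5% each, against 7.98% and 4.96%), and the median was 0.006. The lower genes were Lss, Idi1 and Hsd17b7, enzymes of cholesterol synthesis, at -1.08, -1.05 and -1.05. The higher genes were Elovl6 and Scd1, enzymes of fatty acid elongation and desaturation, and Srebf1, a factor that drives lipid synthesis, higher by 1.98, 1.004 and 1.09. Sqle and Dhcr7, also sterol enzymes, were at 0.48 and 0.73.

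Of 26 lysosomal genes, 24 had a positive difference and 10 were at least 2-fold higher, 38.5% against 7.98%, with a median of 0.83. Grn, progranulin, read 11.74 and 13.04 on sets between 1.23 and 1.70. Npc1, the cholesterol exporter of the lysosome, read 10.25 and 11.54, Psap, the saposin precursor, 13.06 and 14.27, and Ctsd, an aspartic protease, 12.70 and 13.81. Gusb, Lipa and Gaa, hydrolases of glucuronides, lipids and glycogen, were higher by 1.21, 1.19 and 1.11. The proton pump subunits Atp6v1h and Atp6v0d1 were the exceptions, each at -0.43. Tfeb and Tfe3, factors that drive lysosomal genes, differed by -0.15 and 0.07. The E-box CACGTG that these factors read stood in 8 of the 23 matched windows of the 32 lysosomal genes (34.8%). It stood in those of 8.09% of all genes with a window and of 11.9% of genes compared. Of the lysosomal genes compared, 3 of the 8 with it and 5 of 13 without it were at least 2-fold higher.

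**Figure D4:**
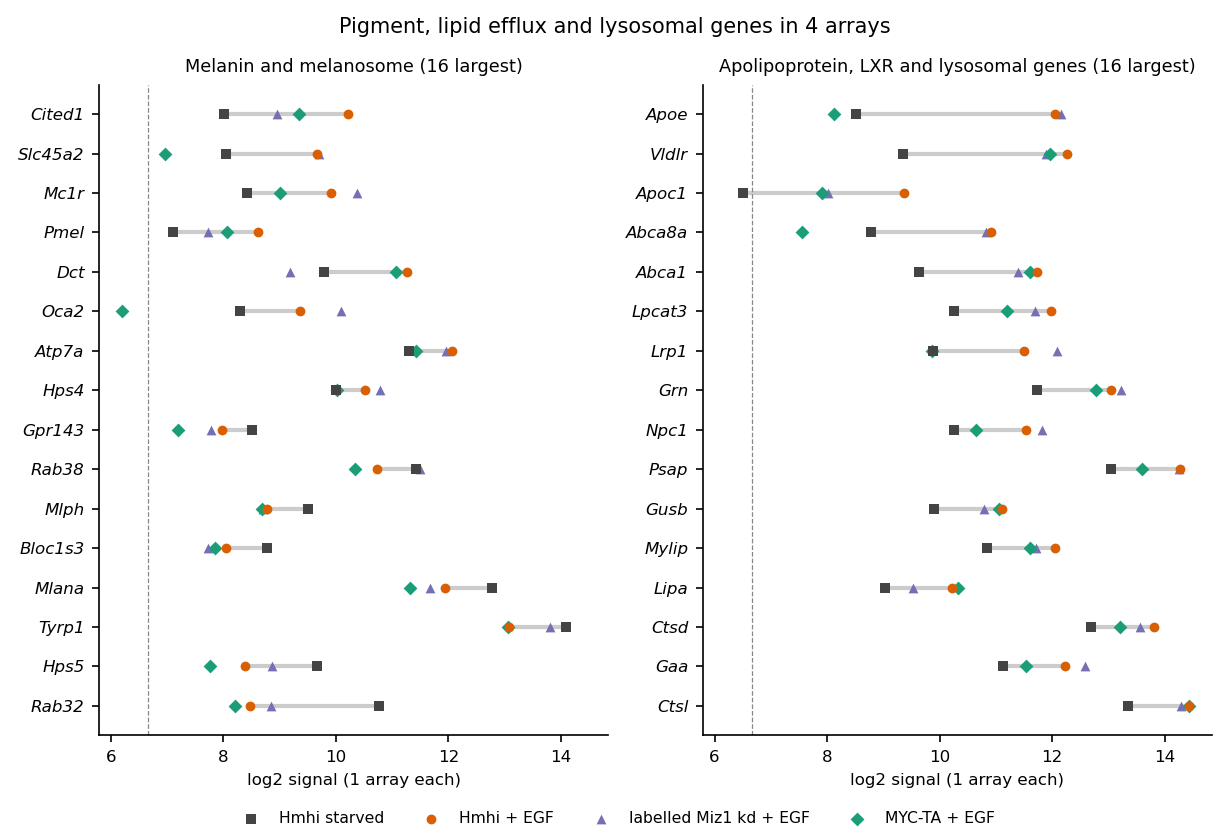
Log2 signal in each of the 4 arrays for the melanin and melanosome genes (left) and for the apolipoprotein, LXR and lysosomal genes (right) with the largest differences, marked as squares (Hmhi starved), circles (Hmhi + EGF), triangles (labelled Miz1 kd + EGF) and diamonds (MYC-TA + EGF), with the array median dashed. Pmel, Dct and Mc1r were higher and Rab32 and Tyrp1 lower with EGF, and Apoe in the MYC-TA array, at 8.13, lay near the starved level of 8.52.

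Several genes that cut the matrix were higher with EGF, while collagens were mixed. Of 20 metalloproteinase, ADAM and TIMP genes, 8 were at least 2-fold higher, 40.0% against 7.98%, none at least 2-fold lower, and the median was 0.79, or 0.44 without the level filter. Mmp2, gelatinase A, read 10.93 and 13.15 with sets at 2.21 and 2.30, and Adamts1 read 11.39 and 13.46. Adam12 read 5.98, below the median, in starved cells and 10.64 with EGF, and Adam19 read 7.30 and 9.60. Adam17, the sheddase that releases several EGF family ligands, was higher by 1.07 on sets between 0.27 and 1.07. Adamts9 was higher by 3.37 on its brightest set and 0.37 on its weakest. Itgb3, the beta subunit of the vitronectin receptor, read 7.31 and 10.17, and Itgb5 11.04 and 12.37 on 4 sets between 1.29 and 1.43. Cdh2, N-cadherin, read 13.12 and 12.04, Cdh13 was at -1.49, and Cdh6 was higher by 1.96. Cdh1, E-cadherin, was below the median on both arrays, at 6.17 and 5.38. Of 19 collagens, 3 were at least 2-fold higher (15.8% against 7.98%) and 4 were 2-fold lower (21.1% against 4.96%). Col6a2, Col11a1 and Col8a1 were at -1.79, -1.88 and -2.32, and Col2a1, a cartilage collagen, was higher by 2.66. All 12 S100 and annexin genes compared had a negative difference on their brightest set, led by S100a4, which read 14.38 in starved cells and 11.87, 12.68 and 12.44 in the 3 EGF arrays.

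Enzymes of sulfur amino acids, which the series title brings in through cystathionase, had a median of -0.36, or -0.12 with the level filter at the 75th percentile. Of 13 compared, 0 were at least 2-fold higher and 1 was 2-fold lower, 7.69%, near the 4.96% of all genes. The lower gene was Tst, the sulfurtransferase rhodanese, at 9.98 and 8.46. Cth, the gene of cystathionase, read 4.34 in starved cells, 5.18 with EGF, 6.202 with the Miz1 kd label and 8.30 in the MYC-TA array. Both Hmhi levels were below the median, so Cth was not among the genes compared. Cbs, the enzyme before it, was also below, at 6.55 and 6.61. Gclc and Gclm, the subunits of the rate-limiting enzyme of glutathione synthesis, were at 0.75 and -0.64. Slc7a11, the cystine transporter, read 5.21, below the median, in starved cells and 7.37 with EGF, with sets at 1.59 and 2.15. Its partner Slc3a2 read 11.80 and 12.84. Slc7a11 and Slc3a2 were the 2 genes at least 2-fold higher of 22 in the antioxidant list, 9.09%, near the 7.98% of all genes. The list's median was -0.14.

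Myc read 10.64 in starved cells and 10.60 with EGF, and 10.79 and 9.78 in the Miz1 kd and MYC-TA arrays. Zbtb17, the gene of Miz-1, read 8.73 and 8.72 in the Hmhi pair and was no lower in the Miz1 kd array, at 9.07. Its level therefore does not bear out that label, and the other EGF arrays are named here as labelled.

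The respiratory chain list hardly differed. None of 31 nuclear genes of the mitochondrial respiratory chain was 2-fold apart, with differences between -0.69 (Sdhc) and 0.58 (Cox4i1) and a median of -0.01. Heat shock genes had a median of -0.24, with Cryab, a small heat shock protein, at 13.91 and 11.77 and Hspb8 at -1.53 as the 2 genes of 15 at least 2-fold lower, 13.3% against 4.96%.

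**Figure D5:**
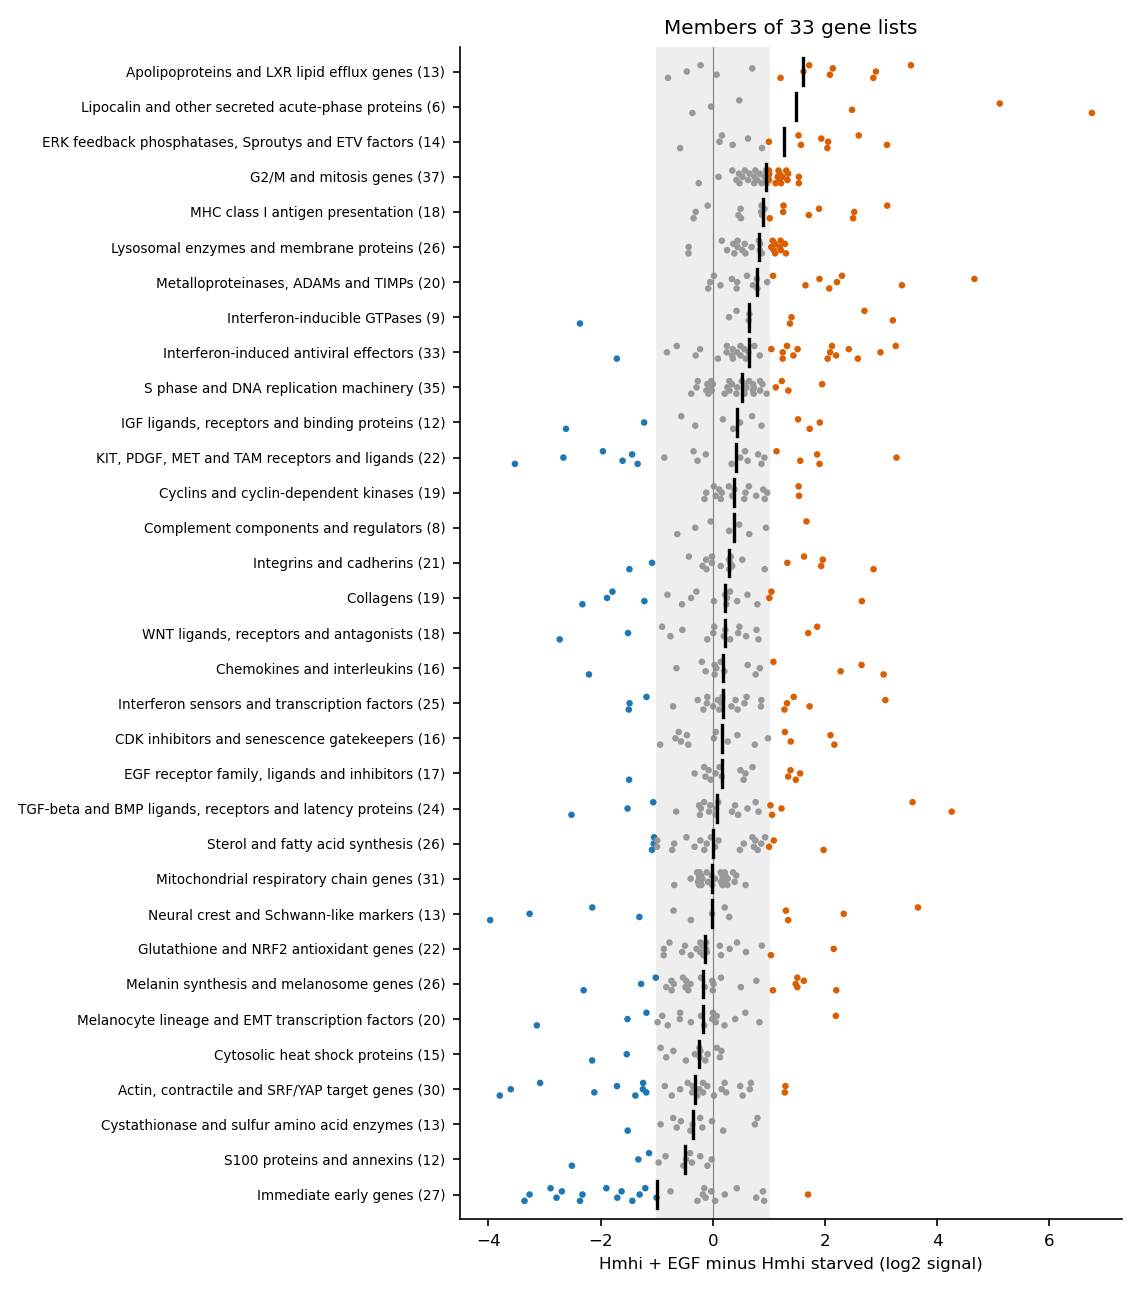
Difference in log2 signal, Hmhi + EGF minus Hmhi starved, for each compared member of 33 gene lists (number of members in brackets), with list medians as black bars, members at least 2-fold higher in orange, at least 2-fold lower in blue, and the range under 2-fold shaded. Lists run from the apolipoprotein and LXR genes, with a median of 1.62, down to the immediate early genes, with a median of -1.002, and the respiratory chain list stays within 2-fold.

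Among lipocalins and secreted acute-phase proteins 6 of 13 genes passed the level filter, and 3 of these were at least 2-fold higher with EGF (50.0% against 7.98%) and none 2-fold lower. Wfdc18, a small secreted protein with a WAP domain, read 8.27 in starved cells and 13.39, 9.71 and 13.07 in the Hmhi EGF, Miz1 kd and MYC-TA arrays, on 1 probe set. Its difference of 5.12, or 34.7-fold, was the largest positive one among the named genes above the median on both arrays, and the Miz1 kd array was the lowest of the 3 EGF arrays. Lcn2, a siderophore-binding lipocalin, read 5.33, below the median, in starved cells and 12.08, 7.601 and 10.79 in the 3 EGF arrays, in the same order. Slpi, a secreted inhibitor of leukocyte proteases, read 8.58 and 11.06. The other 3 genes compared lay between -0.36 (Serpina3n) and 0.47 (Ltf). The median of 1.48 rested on which members entered: it was 0.47 with only plain _at sets, 3.80 when the filter stood at the 75th percentile and 0.16 when no filter was set.

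Further genes with large differences were outside the lists. Among genes above the median on both arrays, Sorcs2, a neurotrophin coreceptor of the sortilin family, read 7.15 and 11.81, and Shc4, an adaptor of receptor tyrosine kinases found in melanocytes and neurons, 7.02 and 10.08. Serpinf1, the secreted factor PEDF, read 10.47 in starved cells and 14.03, 13.99 and 13.55 in the 3 EGF arrays, with sets at 3.56 and 3.81. Tm4sf1, a tetraspanin-like surface protein, read 10.63 and 13.94, and Sdc1, a heparan sulfate proteoglycan, 7.91 and 11.23. Psrc1, Islr, Adgra2, Bcan, Efna5, Fstl1 and Bpifb9b were higher by between 2.96 (Bpifb9b) and 3.76 (Psrc1). Bpifb9b read 5.69 in the array labelled Miz1 kd, below its starved level of 7.71.

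On the lower side, Elobl read 14.47 in starved cells and 6.76, 8.71 and 7.14 in the 3 EGF arrays, on 1 probe set. Kcna1, a potassium channel gene, read 12.37 and 8.99, and Casq2, a calcium store protein of heart muscle, 12.60 and 9.76. Pmp2, a lipid carrier of myelin, read 12.37 and 9.31, and Mal, a membrane raft protein, 10.66 and 7.82. Bdnf, a neurotrophin, read 10.10 and 7.25, Aldh1a1, which makes retinoic acid, 12.00 and 8.83, and Jam2, a junction protein, 13.08 and 9.89 on 5 sets between -3.19 and -1.70. Tppp, Vat1l, Prkcq, Sorbs2, Tecrl, Chst11 and Cdc42ep2 had differences between -3.30 (Tppp) and -2.68 (Cdc42ep2).

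Where 1 array was below the median, the differences have no reliable size. Sned1, Rapgef3, Spsb4, Gzmd, Csn3, Ptgfrn, Cyria and Tlr1 read between 3.24 (Gzmd) and 6.41 (Rapgef3) in starved cells and between 7.51 (Gzmd) and 11.80 (Sned1) with EGF. Gzmd is 1 of a cluster of similar granzyme genes, so its reading is uncertain. Panx3, Crygs, Scel, Wt1, Lrtm2, Runx1t1, Rgs2 and Plppr5 read between 7.99 (Runx1t1) and 9.93 (Wt1) in starved cells and were below the median with EGF. Rgs2, which shortens G protein signaling, read 9.35 and 6.32.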

How the data were processed

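Total RNA of 4 melan-a cultures was hybridized to Affymetrix mouse expression arrays, 1 array per condition. The authors' deposited values ran from 2.94 to 15.12 and were read as log2 signals. Log base, summarization and normalization are not given in the sources used here, and neither is an aligner or build. The sorted columns lay within 0.004 of each other, as quantile normalization gives. The platform annotation gave 1 gene symbol for 34945 probe sets, several for 932 and none for 9160, and 64 were control sets. Entrez identifiers matched 34754 sets to the RefSeq gene table. The probe set that was brightest on average stood for its gene, and a gene was compared if it reached the array median on at least 1 array of the pair.

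With 1 array per side there was no test. Genes at least 2-fold apart were counted, and lists were described by counts and medians. Precision is limited by the number of arrays. Named were list members, and the 25 genes with the largest difference in each direction among genes above the median in both arrays with probe sets of 1 sign, the 10 largest in each direction among genes below it in 1 array, and Zbtb17, Myc and Cth. Gene models were left out. The lists and rules were chosen with earlier results of these data known, so no list is independent evidence. Promoter windows came from RefSeq (GRCm38.p6), 32851 windows of 27025 genes. Alternatives replaced the scaling (a common median, or loess with span 0.4), the level filter (none, or the 75th percentile) or the choice of probe set (the mean of all, or those ending in a plain _at). The code was tested on simulated data. Python 3.11.15, pandas 2.3.3, numpy 2.4.6, statsmodels 0.14.6 and matplotlib 3.10.9 were used.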

Additional observations from a re-analysis of the deposited data

Results flagged for a closer look

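Signal outside the comparisons was present in 4 places. Of 2707 unnamed non-control probe sets past the level filter, 143 were at least 2-fold higher with EGF (5.28%) and 140 at least 2-fold lower (5.17%). Of 593 sets with several gene symbols, 51 were at least 2-fold higher, against 29 that were 2-fold lower. Both shares lay near those of all genes compared, 7.98% higher and 4.96% lower. The 3 control sets of 18S ribosomal RNA had a median difference of 0.83, and 3 control sets of B1 and B2 repeats one of 0.39. All 6 were higher in the EGF array. The 24 spiked poly-A control sets had a median of -0.14 and the 18 hybridization control sets one of 0.10. The part of these values in the gene differences was not tested.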

How the results depend on the processing

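No paired analysis was possible because there was a single array per condition, and no array could be left out. The counts of 915 higher and 568 lower genes stayed within 1.5 times under all 6 alternatives, from 650 to 983 higher and from 423 to 587 lower. Of 39 list medians, 37 had a value under all 6 alternatives, and 22 of these moved by less than 0.32 under each. Without the level filter, the medians were 0.94 for ERK feedback, -0.12 for the KIT, PDGF, MET and TAM list (0.41 as reported, so it reversed), 0.16 for lipocalin and acute-phase genes, 1.29 for apolipoproteins, 0.44 for metalloproteinases, and 0.26 and 0.12 for fibroblast and macrophage markers. With the filter at the 75th percentile they were -1.53 for immediate early genes, -0.31 for the KIT, PDGF, MET and TAM list (reversed), -0.58 for lineage factors, 0.84 for chemokines, 3.80 for lipocalin genes and 2.09 for apolipoproteins. Markers then stood at 2.24 (fibroblast), -0.75 (keratinocyte), -1.08 (macrophage, reversed) and 0.53 (melanocyte). With the mean of all sets, apolipoproteins were at 1.06, fibroblast markers at 2.03 and melanocyte markers at 0.49. With only plain _at sets, the EGF receptor family was at 0.49, the GTPases at 1.01, lipocalin genes at 0.47, S100 and annexin genes at -0.90 and fibroblast markers at 1.52. These settings change which genes or sets enter; the cause was not tested further. Of 73 named genes, 63 had a value under all 6 alternatives, and 32 of these moved by less than 0.32 under each. Where a value could be had, 0 of the named genes that differed by 0.32 or more reversed.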

Other observations

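Notch receptors were outside the lists and are named here after their values were seen. Notch1 read 9.93 in starved and 12.43 in EGF cells with 2 probe sets at 1.85 and 2.504, and Notch3 read 7.16 and 9.23. Mfng, a glycosyltransferase that modifies Notch, read 6.41, below the median, in starved cells and 9.002 with EGF. Differences were spread over the chromosomes, with medians between -0.14 on chromosome 14 and 0.11 on chromosome 9. The X chromosome, with 315 genes compared, had a median of -0.13. Split by mean level into 4 bins, the dimmest bin had 9.77% of its genes at least 2-fold higher and 5.09% lower, and the brightest 6.74% and 4.99%.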
